A study of Mus musculus with 4 samples.

Results

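The genes described here encode transcription factors of the forkhead (Fox), SRY-related (Sox), T-box (Tbx), GATA, MEF2, MEIS and BTB zinc finger (Zbtb) families, read from m6A profiles of mouse liver. Members were taken by symbol, from every peak whose overlapped gene carries a symbol of these families followed by a number or by a letter and a number, with Foxo1, Foxo3 and the Foxa genes left out. This gave 96 distinct peaks in 55 genes, of 12815 peaks in 7835 genes in all. The rule reads letters only, so it also took 6 genes that are not factors of these families. These were Gatad1 and Gatad2a, which encode chromatin proteins with a GATA-type zinc finger domain, Tbxa2r, which encodes the thromboxane A2 receptor, the opposite-strand transcripts Tbx3os1 and Zbtb11os1, and Zbtb8os, which encodes archease, a cofactor of the tRNA ligase. The other 49 genes held 86 peaks, of which 48 peaks lay in 24 Zbtb genes, 19 in 11 Fox genes, 9 in 8 Sox genes, 4 in 2 Tbx genes, 3 in 2 Mef2 genes, 2 in Gata4 and 1 in Meis1. No peak of the table used here lay in a Hox, Tead or Runx gene. Zbtb11 and Zbtb11os1 shared 1 peak, which was counted once.

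The livers came from Mettl3flox/flox mice (flox) and from mice that carry the same floxed alleles with Alb-Cre (HKO), in which the albumin promoter drives the recombinase in hepatocytes, so that the other liver cell types keep Mettl3. All mice were C57BL/6, ate normal chow and were 8 weeks old. Poly(A)+ RNA was fragmented and precipitated with an m6A antibody, and precipitated RNA (IP) and RNA before precipitation (input) were sequenced in 4 libraries, 1 for each genotype and fraction, each from the pooled RNA of several mice. There was 1 library per group, so no difference below has a replicate check and none was tested; intervals of single peaks are 95% intervals of read counting error only, which are too narrow where reads are PCR copies. The library totals ran from 14972301 to 18365473 reads, and member peaks held 0.398% of the flox IP reads in peaks and 0.326% of the HKO IP reads in peaks. Mettl3 itself has no row in the table, which leaves the loss of its mRNA unchecked here. Hepatocyte markers were abundant, with a summed input of 7727 RPM (reads scaled to the library total) under the peaks of 6 of 8 markers in flox and 7560 RPM in HKO.

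As background, METTL3 is the catalytic subunit of the nuclear complex that methylates adenosine in mRNA at N6, most often within the letters GGAC followed by U and toward the end of the coding sequence or after it. The mark is read by proteins that shorten or otherwise alter the life of the transcript, and mRNAs of transcription factors are known as a class that often carries it. Forkhead and SOX proteins bind DNA through a winged-helix and a high-mobility-group domain, and T-box and GATA factors direct the formation of liver and heart. BTB zinc finger proteins join a BTB domain, which recruits corepressors, to zinc fingers that bind DNA, and most are repressors.

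The sites at which the members' peaks held GGACT, the DNA spelling of the common core, are shown first for 10 peaks that carry the comparisons below. Each is given 5′ to 3′ on the strand of the gene, with T for U and with GGACT in capitals, and its position is on GRCm38. The first 7 lie in peaks that were lower in HKO and the last 3 in peaks that were not.
Foxk2, 3' UTR, chr11:121307091-121307115, plus strand: ccctgcggttGGACTtcacctctca
Foxp4, 3' UTR, chr17:47868541-47868565, minus strand: ggcacttcggGGACTcagacggggg
Tbx3, 3' UTR, chr5:119683325-119683349, plus strand: ttgaaacgcgGGACTgagggggcgg
Sox6, 3' UTR, chr7:115471193-115471217, minus strand: ccctccagtgGGACTtgtccagggc
Zbtb18, coding sequence, chr1:177447614-177447638, plus strand: ccagcaaaagGGACTtggcagctga
Zbtb43, coding sequence, chr2:33454142-33454166, minus strand: atgaacaggtGGACTtctatggctc
Zbtb7a, coding sequence, chr10:81144046-81144070, plus strand: aacgagcagcGGACTcaggggctgc
Zbtb7a, 3' UTR, chr10:81149281-81149305, plus strand: gtaaccccagGGACTcaggcagaga
Sox17, coding sequence, chr1:4492340-4492364, minus strand: ggactgccagGGACTgggcgctccc
Zbtb4, coding sequence, chr11:69778551-69778575, plus strand: accgttgtggGGACTgtgcccaggc

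The first comparison asked how far m6A enrichment over these mRNAs differed between HKO and flox livers. Enrichment is the IP RPM divided by the input RPM of the same genotype, and a peak is called lower or higher when enrichment differed at least 2-fold. Of the 96 member peaks, 45 (46.9%) were lower in HKO, against 24.3% of all peaks. Higher enrichment was found at 2 member peaks (2.08%), against 6.25% of all peaks. The median log2 change over member peaks was -0.94, against -0.04 over all peaks. The median enrichment of the members was 4.36 in flox and 2.23 in HKO, and that of all peaks 2.84 and 2.31. No listed enrichment was 1 or less, so only peaks with an enrichment of at least 2 in flox could be lower. Of such peaks 45 of 85 members were lower (52.9%), against 34.7% of all, a smaller difference than over all member peaks. The counting interval lay below 0 at 58 member peaks (60.4%, against 35.8% of all peaks) and above 0 at 10 (10.4%, against 25.3%), and it lay below 0 at 43 of the 45 lower peaks.

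By gene, 33 of 55 members (60%) had at least 1 lower peak, against 34.5% of all genes, and 2 of 55 (3.64%) had a higher peak, against 10% of all genes. The members had 1.76 peaks per gene and all genes had 1.71. Zbtb39 was the single member with peaks of both kinds. Of the 96 peaks, 34 had been called by the authors in flox alone (35.4%, against 22.5% of all peaks), 44 in both genotypes (45.8%, against 46.2%) and 18 in HKO alone (18.8%, against 31.3%). Among those called in both genotypes, 20 of 44 were lower (45.5%), against 21.7% of all peaks called in both. Among the 38 member peaks with at least 456 IP reads, the median over all peaks, 20 were lower (52.6%) and 0 higher, against 27.8% lower among all peaks of that depth.

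**Figure D1:**
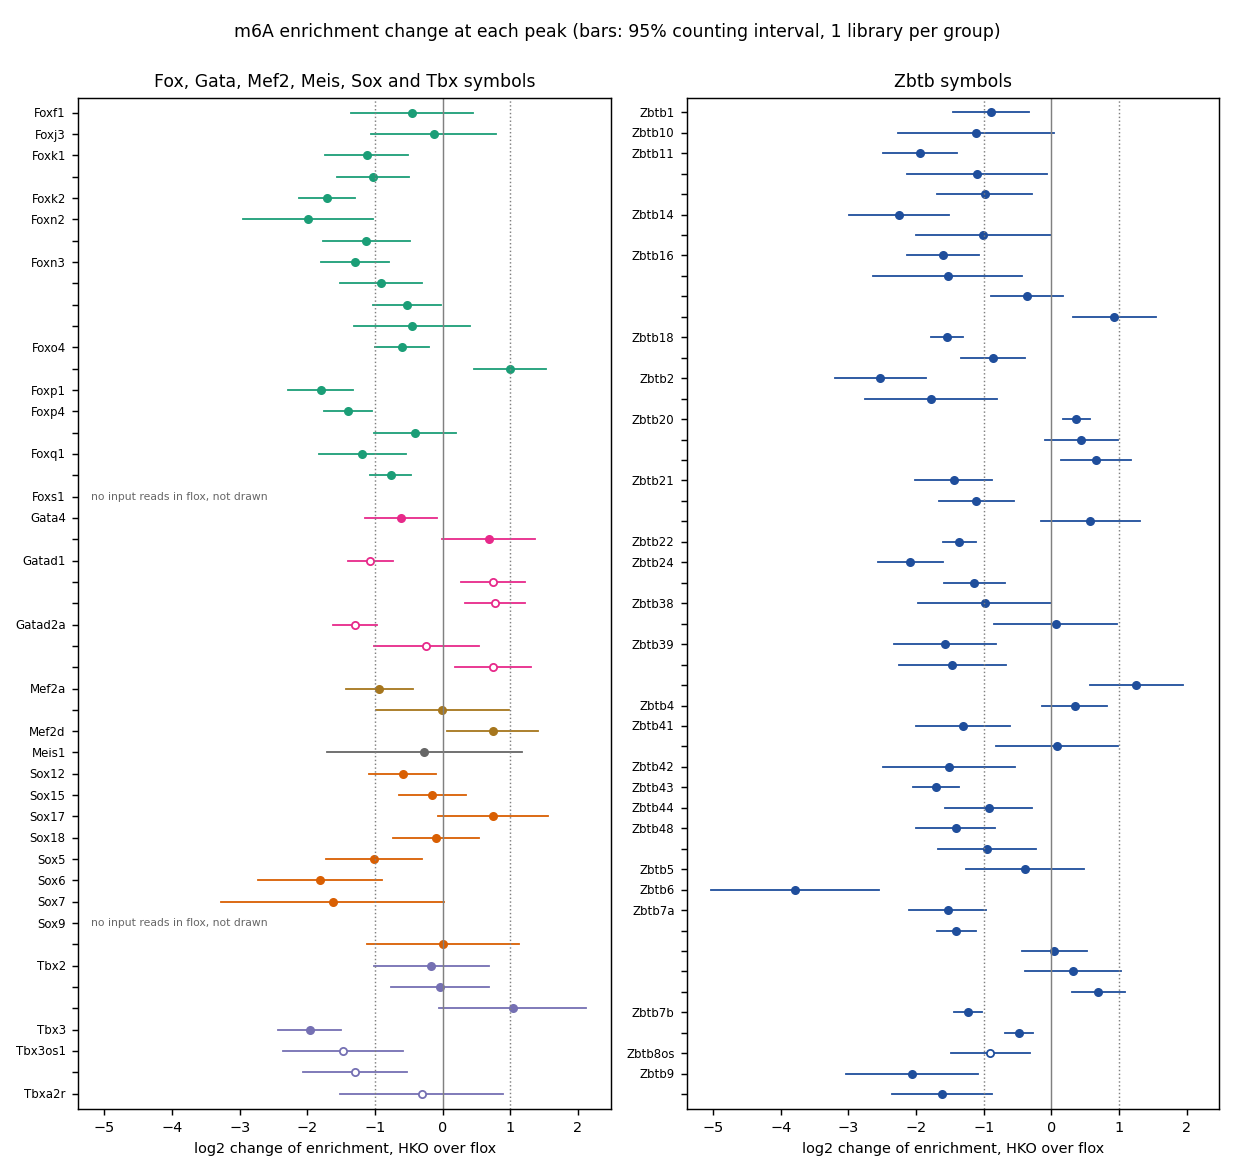
Log2 change of enrichment (HKO over flox) at each member peak, grouped by gene, with 95% counting intervals as horizontal bars, open circles for the genes that are not factors of the families, dotted lines at a 2-fold difference and 1 library per group. Most points lie left of 0, and the lowest drawn is the peak of Zbtb6 at -3.78, whose flox input held 6 reads.

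Lower peaks were also counted by family, and differences between the families were not tested. Of the 48 Zbtb peaks, 27 (56.3%) were lower and 1 was higher, with a median log2 change of -1.11. Of the 19 Fox peaks, 9 (47.4%) were lower and 0 higher, with a median of -0.91. Among Sox peaks the count was 4 of 9, with a median of -0.59. Tbx2 and Tbx3 had 1 lower and 1 higher peak of 4, and none of the 6 peaks of Gata4, Mef2a, Mef2d and Meis1 was lower or higher. Without the Zbtb genes 18 of 47 member peaks were lower (38.3%), with a median of -0.59. The Zfp genes, zinc finger genes that mostly lack a BTB domain, had 125 of 230 peaks lower (54.3%), with a median of -1.09, values close to those of the Zbtb genes. By gene, 18 of 24 Zbtb genes (75.0%) and 97 of 131 Zfp genes (74.0%) had a lower peak, and all genes stood at the 34.5% above.

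Among the forkhead genes, Foxk1 and Foxk2 were lower at each of their peaks. Both proteins repress autophagy genes in fed cells. The Foxk2 peak at its stop codon (chr11:121306786-121307453) held 932 IP and 130 input reads in flox and 212 IP and 123 input reads in HKO. Its enrichment of 6.00 in flox stood against 1.83 in HKO, and the log2 change was -1.71 (95% counting interval -2.13 to -1.30). The IP was lower by far more than the input, whose log2 change was -0.37. The letters printed above for Foxk2 lay 3 nt from the highest point (summit) of this peak. Foxk1 had 2 peaks in its 3' UTR, with changes of -1.03 and -1.12.

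Both FOXP members, transcriptional repressors with roles in lymphocytes and lung, had a lower peak. The Foxp1 peak, 202 nt past the stop codon, held 656 IP and 70 input reads in flox and 240 and 114 in HKO. Enrichment went from 7.79 in flox to 2.23 in HKO, and its log2 change was -1.80 (-2.28 to -1.33). At the stop codon of Foxp4 there were 782 IP and 134 input reads in flox and 396 and 228 in HKO, a change of -1.40 (-1.75 to -1.05). Fewer IP reads and more input reads were counted in HKO at both. A second Foxp4 peak, in the 5' UTR, had 146 IP and 36 input reads in flox and 274 and 115 in HKO, and its interval included 0 (-1.01 to 0.20). So the 2 ends of the Foxp4 mRNA differed, with the lower peak at the stop codon.

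Foxo4, a factor that insulin signalling keeps out of the nucleus, had peaks that moved in opposite directions without either passing the 2-fold limit. The first, at the start of its coding sequence, held 839 IP and 164 input reads in flox and 293 and 110 in HKO, a change of -0.60 with an interval below 0. The second, 820 nt past the stop codon, held 233 and 114 reads in flox and 188 and 58 in HKO, a change of 0.99 (0.46 to 1.53). Summed over both peaks, 278 Foxo4 reads were counted in the flox input and 168 in the HKO input, a log2 change of -1.02. The higher enrichment of the second peak thus came with fewer IP reads as well as fewer input reads.

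Foxq1, which acts in hair follicles and epithelia, had 1 lower peak at the stop codon (222 IP and 79 input reads in flox, 56 and 58 in HKO, change -1.19) and another in the coding sequence with a change of -0.77 (-1.07 to -0.47). The second peak also overlaps A530084C06Rik. Foxn3, a transcriptional repressor, had 4 peaks with changes from -1.30 at the stop codon to -0.46 in the 3' UTR, and the peak at the stop codon alone passed 2-fold. Foxn2 had 2 lower peaks, -1.99 in the coding sequence and -1.13 at the stop codon. Foxf1, a mesenchymal and endothelial factor, had a change of -0.45 and Foxj3, an activator of Mef2c in mouse muscle, of -0.13, with intervals that included 0. Foxs1, known from pericytes, held 21 IP and 0 input reads in flox and 92 and 4 in HKO, so no change is given for it.

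The Sox genes had 4 lower peaks, in Sox5, Sox6, Sox7 and Sox9, and 5 others with changes from -0.59 to 0.74. The 2 SOXD members, Sox5 and Sox6, whose proteins act with SOX9 in cartilage, were both lower. At the Sox6 peak in the 3' UTR there were 149 IP and 27 input reads in flox and 34 and 28 in HKO, a change of -1.81 (-2.73 to -0.89). At the stop codon of Sox5 there were 254 and 32 reads in flox and 135 and 44 in HKO, a change of -1.01 (-1.73 to -0.30). Fewer IP reads were counted at both in HKO. Scaled to the library total, the input was lower in HKO at Sox6 (log2 change -0.24) and higher at Sox5 (0.15). Sox12, of the SOXC group, had the most IP reads of the family and a smaller change, with 459 IP and 75 input reads in flox and 262 and 82 in HKO, a change of -0.59 (-1.09 to -0.09).

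Sox7, Sox17 and Sox18 encode the SOXF factors of endothelium, a cell type outside the reach of Alb-Cre. The Sox17 peak held 201 IP and 30 input reads in flox and 214 and 24 in HKO, a change of 0.74 (-0.07 to 1.55). The Sox18 peak held 274 and 36 reads in flox and 327 and 59 in HKO, a change of -0.10 (-0.74 to 0.53). The Sox7 peak held 114 and 4 reads in flox and 52 and 8 in HKO, a change of -1.63 with an interval that reached 0 (-3.27 to 0.02). Sox17 and Sox18 therefore kept their IP reads in HKO, and Sox7 did not, on inputs too small to place it. The summed input of 6 of 8 endothelial markers was 130 RPM in flox and 98.7 RPM in HKO. Of their 9 peaks 0 were lower, against 24.3% of all peaks. Hepatocyte markers, in the cells that Alb-Cre reaches, also had few lower peaks, 2 of 12. The median log2 change was 0.28 for endothelial and 0.39 for hepatocyte marker peaks. The part of endothelial cells in the SOXF values was not tested. Sox15, which acts in muscle regeneration, had a change of -0.15 (-0.65 to 0.35) at a peak that also overlaps Mpdu1.

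Sox9, a factor of bile duct and progenitor cells in liver, stood apart by its input. Its 3' UTR peak (chr11:112785658-112785870) held 130 IP and 0 input reads in flox and 66 IP and 56 input reads in HKO. With the 3 reads that a count of 0 allows, flox enrichment was at least 36.5 and HKO enrichment was 1.26, which is at least 29.0-fold lower, and the input was at least 15.2-fold higher in HKO. Its other peak, in the coding sequence, held 36 IP and 8 input reads in flox and 204 and 62 in HKO, with enrichment of 3.46 in flox and 3.47 in HKO. Over both peaks 8 input reads were counted in flox and 118 in HKO, so both peaks had more input RNA in HKO and they differed in the IP. Spp1, the 1 of 5 bile duct markers with a peak, showed 187 flox and 536 HKO input reads, and Krt19, Krt7, Epcam and Cftr had no peak. The part of bile duct cells in the Sox9 result was not tested. In bulk liver, more cells of a type and more RNA per cell cannot be told apart.

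Tbx3 had the lowest change among the T-box genes. TBX3 is a repressor needed for the growth of the embryonic liver. Its peak at the stop codon and the start of the 3' UTR (chr5:119682847-119683634) held 378 IP and 79 input reads in flox and 165 IP and 172 input reads in HKO. The flox enrichment of 3.99 compared with 1.02 in HKO, with a log2 change of -1.96 (-2.43 to -1.50), so that the HKO IP stood at the level of its input. The input RNA of Tbx3 was higher in HKO by 0.82 on the log2 scale (0.44 to 1.20). Both peaks of the noncoding Tbx3os1 were also lower, with changes of -1.29 and -1.48.

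Tbx2, a closely related repressor, moved otherwise. Its stop codon peak held 228 IP and 28 input reads in flox and 261 and 42 in HKO, a change of -0.03 (-0.76 to 0.69). In the 5' UTR there were 60 and 16 reads in flox and 92 and 15 in HKO, a change of 1.04 whose interval reached 0 (-0.05 to 2.13). This was 1 of the 2 higher member peaks, on few reads. The peak of Tbxa2r had a change of -0.31 (-1.52 to 0.90).

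Gata4, a zinc finger factor of liver and heart formation that is also made in sinusoidal endothelium, had 198 IP and 60 input reads at its stop codon in flox and 193 and 114 in HKO, a change of -0.61 (-1.14 to -0.08). Its 3' UTR peak had 72 and 39 reads in flox and 163 and 70 in HKO, a change of 0.68 (-0.01 to 1.37). In Gatad1 and Gatad2a the stop codon peak was lower (-1.07 and -1.29), and the peaks upstream of it ranged from -0.24 to 0.77. Mef2a, a MADS-box factor, had a change of -0.94 (-1.43 to -0.44) at its stop codon and of 0.00 in its 5' UTR, and Mef2d had 0.74 (0.06 to 1.42) in its coding sequence. Meis1, a homeodomain factor of blood stem cells, had a change of -0.27 on 11 and 6 input reads.

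Of the BTB zinc finger genes, Zbtb7b had the peak with the most IP reads. ZBTB7B (ThPOK) commits T cells to the CD4 lineage and also acts in liver and fat. Its peak at the stop codon (chr3:89379332-89379987) held 2591 IP and 375 input reads in flox and 1308 and 563 in HKO. That gave an enrichment of 5.80 in flox and 2.47 in HKO, and the log2 change was -1.23 (-1.44 to -1.02). Its coding sequence peak changed less, with 1206 and 488 reads in flox and 1016 and 726 in HKO, a change of -0.48 (-0.68 to -0.27). The intervals of the 2 Zbtb7b peaks did not overlap.

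Zbtb22 and Zbtb18 each had a deeply read peak in the coding sequence. Zbtb22 held 2037 IP and 295 input reads in flox and 919 and 433 in HKO, a change of -1.36 (-1.60 to -1.12). Zbtb18, a repressor needed for the differentiation of cortical neurons, held 1449 IP and 250 input reads in flox and 1095 and 698 in HKO, a change of -1.54 (-1.78 to -1.30). In Zbtb22 the IP changed more than the input, and in Zbtb18 the input changed more than the IP. Summed over 2 peaks, 322 input reads of Zbtb18 were counted in flox and 899 in HKO, with a log2 input change of 1.18 and an interval above 0.

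The lowest changes among deeply read Zbtb peaks were those of Zbtb2, Zbtb24 and Zbtb11. At the stop codon of Zbtb2 there were 350 IP and 28 input reads in flox and 135 and 81 in HKO, so enrichment was 10.2 in flox and 1.77 in HKO, a change of -2.53 (-3.20 to -1.85). Zbtb24, mutated in a human immunodeficiency with loss of DNA methylation at centromeres, held 386 and 62 reads in flox and 199 and 174 in HKO near the end of its coding sequence, a change of -2.09 (-2.57 to -1.60). Zbtb11, needed for mitochondrial gene expression, held 602 and 66 reads in flox and 138 and 74 in HKO at a similar place, a change of -1.94 (-2.48 to -1.39). In Zbtb11 the input was nearly level and the IP lower, and in Zbtb2 and Zbtb24 the IP was lower and the input higher. Zbtb43 held 984 IP and 136 input reads in flox and 448 and 256 in HKO, a change of -1.70 (-2.04 to -1.36). Zbtb14 reached -2.25 at its stop codon, and Zbtb6 reached -3.78 (-5.03 to -2.54) on 6 input reads in flox and 38 in HKO.

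The remaining Zbtb genes had fewer reads. Zbtb48, which encodes a telomere-binding protein, held 274 IP and 62 input reads in flox and 96 and 74 in HKO in its coding sequence, a change of -1.41 with an interval below 0, and had a change of -0.95 at its stop codon. Zbtb1, needed for lymphocyte development, held 311 and 51 reads in flox and 208 and 81 in HKO, a change of -0.89 (-1.46 to -0.33). Zbtb9 had 2 lower peaks, -1.62 at its stop codon and -2.06 in its 3' UTR, but both also overlap Ggnbp1. The lower peaks of Zbtb42 (-1.51), Zbtb41 (-1.31) and Zbtb10 (-1.12) rested on 12 to 36 flox input reads, and a second Zbtb41 peak, with 62 IP and 19 input reads in flox and 102 and 38 in HKO, had a change of 0.09 (-0.81 to 0.99). Zbtb44, with -0.93, and Zbtb8os, with -0.90, came close to the 2-fold limit, and Zbtb5, with 155 IP and 44 input reads in flox and 45 and 21 in HKO, changed by -0.39 with IP and input both lower in HKO.

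A few Zbtb genes did not follow. Zbtb4, which binds methylated DNA, held 520 IP and 79 input reads in flox and 515 and 78 in HKO, a change of 0.34 (-0.14 to 0.83), with 5 copies of GGACT in its peak. Zbtb20, which silences alpha-fetoprotein in the adult liver, had 3 peaks with changes of 0.37, 0.44 and 0.66. The deepest, with 1293 IP and 477 input reads in flox and 1550 and 560 in HKO, lay in an intron and also overlaps BC002163. Zbtb38, another binder of methylated DNA, had a change of 0.06 at its stop codon and of -0.99 upstream. Zbtb4, Zbtb20 and Zbtb38 thus had no lower peak, nor had Zbtb1, Zbtb5 and Zbtb44 above.

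**Figure D2:**
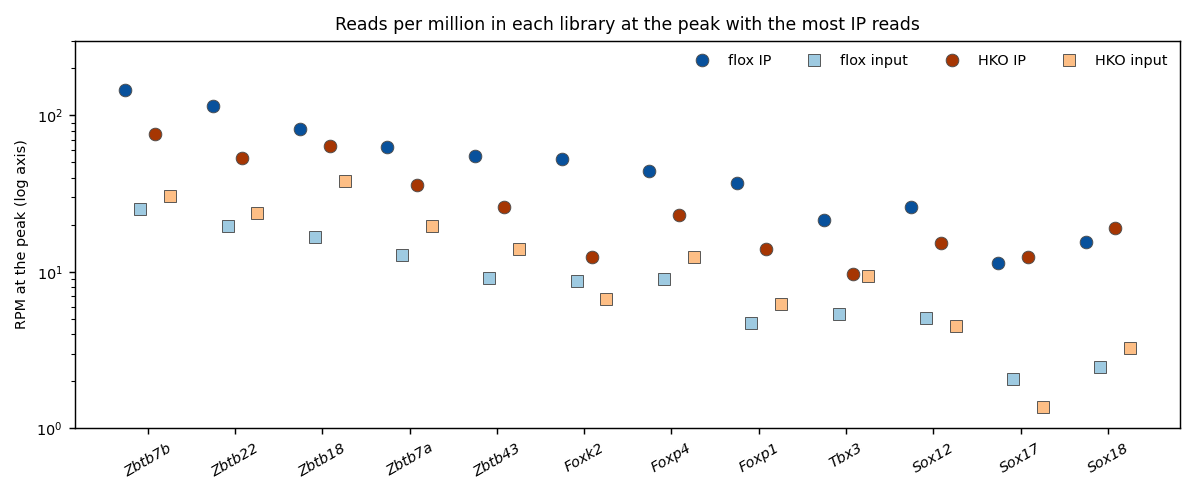
RPM in each of the 4 libraries (log axis) at the peak with the most IP reads of 12 members, circles for IP and squares for input, 1 library per group. For Zbtb7b the flox IP point lies above the HKO IP point and the flox input point below the HKO input point, and for Sox17 and Sox18 the HKO IP points lie level with or above the flox IP points.

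A lower enrichment can come from fewer IP reads or from more input reads, so both were set side by side. Of the 45 lower member peaks, 42 had a lower IP RPM in HKO and 23 an IP RPM at least 2-fold lower. In 33 of them the input RPM was higher in HKO, in 12 at least 2-fold. The IP was not lower at 3. All lower peaks of the series were alike in this. Their median log2 changes of IP and input were -1.05 and 0.49, against -1.03 and 0.47 at the lower member peaks. Over all 96 member peaks an IP RPM at least 2-fold lower was found in 32.3%, against 18.9% of all peaks.

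**Figure D3:**
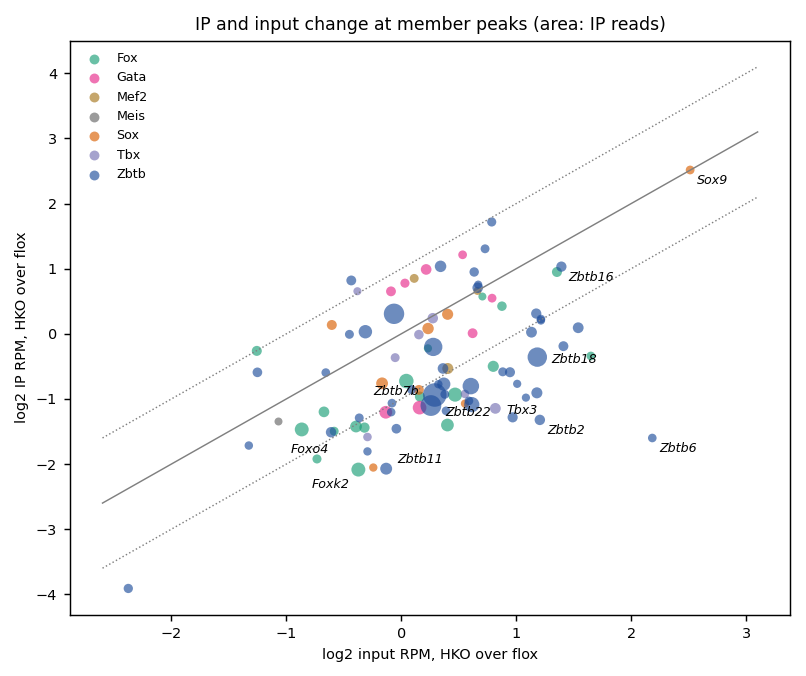
Log2 change (HKO over flox) of IP RPM against that of input RPM at each member peak with input reads in flox, with point area by IP reads, colours by family, the solid line at equal change and dotted lines at a 2-fold difference of enrichment. Points below the lower dotted line are the lower peaks, and they spread over input changes of either sign, with Foxk2 and Zbtb11 left of 0 and Zbtb2 and Zbtb6 right of it.

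The input reads under the peaks give the RNA level of each member as far as this table does. The median log2 input change over the 55 genes was 0.25, against 0.21 over all genes. At least 2-fold higher input, with a count of 0 set to 3 reads, was found in 6 members (10.9%), against 13.3% of all genes, and at least 2-fold lower input in 3 (5.45%), against 4.45%. The 6 were Sox9, Zbtb6, Zbtb21, Zbtb18, Zbtb2 and Zbtb14, and the 3 were Zbtb5, Meis1 and Foxo4. As shares these counts were near those of all genes. In flox and HKO in turn, Zbtb21 had 112 and 320 input reads, Zbtb2 had 42 and 117, Zbtb14 had 36 and 95, and Zbtb5 had 44 and 21. Zbtb8os had a log2 input change of -0.61 and Zbtb44 one of -0.37.

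Peaks were then placed on transcripts. Of 94 placed member peaks, 30 lay within 200 nt of the stop codon (31.9%, exact Clopper-Pearson 95% interval over peaks 22.7 to 42.3), against 22.8% of all placed peaks. A further 21 lay in the rest of the 3' UTR (22.3% against 15.8%) and 36 in the rest of the coding sequence (38.3% against 33.2%). Only 2 lay within 200 nt of the transcript start (2.13%), against 13.1% of all placed peaks. The 2 peaks not placed lie in introns of Zbtb20 and Zbtb16. Members thus had a smaller share of peaks at transcript starts, while the interval of their share at the stop codon included that of all peaks.

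Within each position the members' shares were as follows. Near the stop codon 18 of 30 member peaks were lower (60%), against 42.3% of all such peaks, with medians of -1.12 and -0.81. In the coding sequence 16 of 36 were lower (44.4%), against 22.5%, with medians of -0.91 and 0.01. In the 3' UTR 8 of 21 were lower (38.1%), against 37.3%, with medians of -0.53 and -0.70. Over the members as a whole the share was thus above that of all peaks in the coding sequence and at the stop codon, and level with it in the 3' UTR. The Zbtb genes had 9 of 12 lower peaks near the stop codon, 15 of 23 in the coding sequence and 2 of 10 in the 3' UTR. All 16 lower coding sequence peaks but that of Foxn2 were thus Zbtb peaks, and the other families did not share the higher proportion there. In the 3' UTR the Zbtb share was below that of all peaks, and most lower member peaks belonged to other families.

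**Figure D4:**
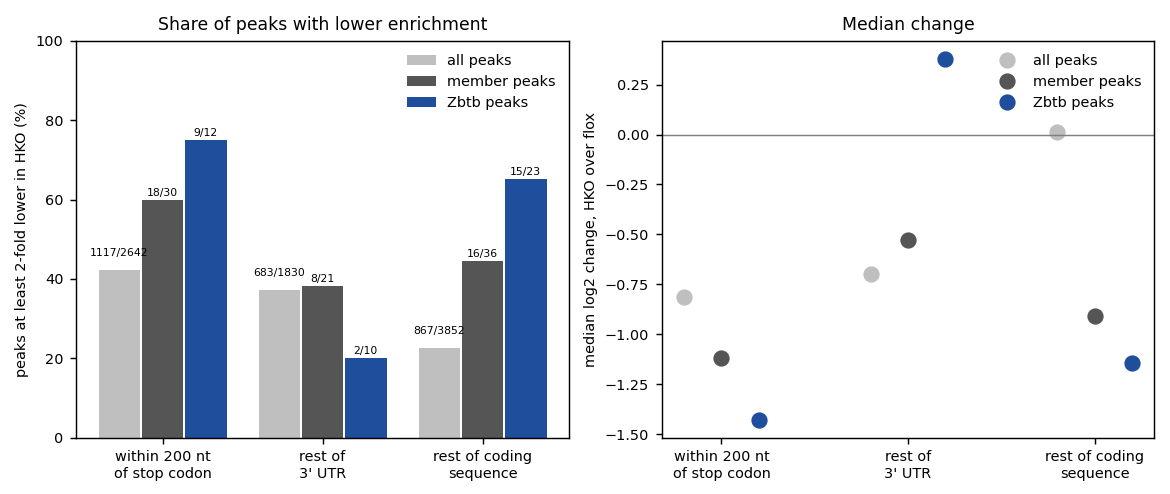
Left, the share of peaks at least 2-fold lower in HKO, as bars from 0 with the counts above them, and right, the median log2 change, for all peaks, member peaks and the peaks of Zbtb factors by place on the transcript. Of the Zbtb peaks, 9 of 12 near the stop codon were lower and 2 of 10 in the rest of the 3' UTR, where their median is 0.38.

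Within the 3' UTR the values differed with the distance from the stop codon. All 5 member peaks from 200 to 800 nt past it were lower (Foxp1, Foxk1, Sox7, Sox9 and Zbtb42), against 42.8% of all such peaks. Of the 16 further out, 3 were lower (18.8%), against 29.1% of all such peaks, with medians of 0.18 and -0.42. These 3 were peaks of Foxk1, Sox6 and Zbtb9. The limit of 800 nt was chosen after the values of Zbtb7a had been seen, and no other limit was tried. Just past it lay peaks of Foxo4 (820 nt, change 0.99) and Zbtb16 (831 nt, change 0.93), neither of them lower. Of the 5 nearer peaks, that of Sox7 rested on 4 and 8 input reads, and that of Sox9 had 0 input reads in flox.

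Peaks of a single mRNA could also be compared, and 10 members had 3 or more. Zbtb7a, which gives 3 of the 16 distal peaks above and is no independent example of them, a repressor that silences fetal globin, had 5. In its coding sequence there were 260 IP and 46 input reads in flox and 167 and 110 in HKO, a change of -1.54 (-2.10 to -0.97), and at its stop codon 1121 and 192 in flox and 622 and 359 in HKO, a change of -1.41 (-1.70 to -1.12). The 3 peaks 901, 2475 and 3193 nt past the stop codon had changes of 0.04, 0.69 and 0.32. The intervals of the 2 lower peaks did not overlap those of the 3 others. Input RPM was higher in HKO over the gene as a whole, by 0.59 on the log2 scale.

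Zbtb39 had 2 lower peaks at the end of its coding sequence (-1.47) and at its stop codon (-1.57), and another, 3630 nt past the stop codon, with 147 IP and 42 input reads in flox and 252 and 38 in HKO, a change of 1.25 (0.56 to 1.94). This last was the other higher member peak, and it also overlaps Gpr182, so its reads cannot be given to Zbtb39 alone. Zbtb21 had changes of -1.45 and -1.11 in its last part and of 0.58 further upstream. Zbtb11 had its lowest change nearest the stop codon and -1.10 and -0.98 further upstream, and its first peak also overlaps Zbtb11os1.

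Zbtb16 (PLZF), a factor of innate-like T cells that glucocorticoids induce, had 4 peaks of 3 kinds. An exon of its coding sequence held 218 IP and 49 input reads in flox and 185 and 162 in HKO, a change of -1.60 (-2.14 to -1.06). A peak in an intron held 294 and 54 reads in flox and 18 and 12 in HKO, a change of -1.54 (-2.63 to -0.44). The stop codon and 3' UTR peaks had changes of -0.36 (-0.90 to 0.17) and 0.93 (0.32 to 1.54). The input of the intron peak was lower in HKO while that of the 3 exonic peaks was higher, so the intron did not follow the mRNA.

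**Figure D5:**
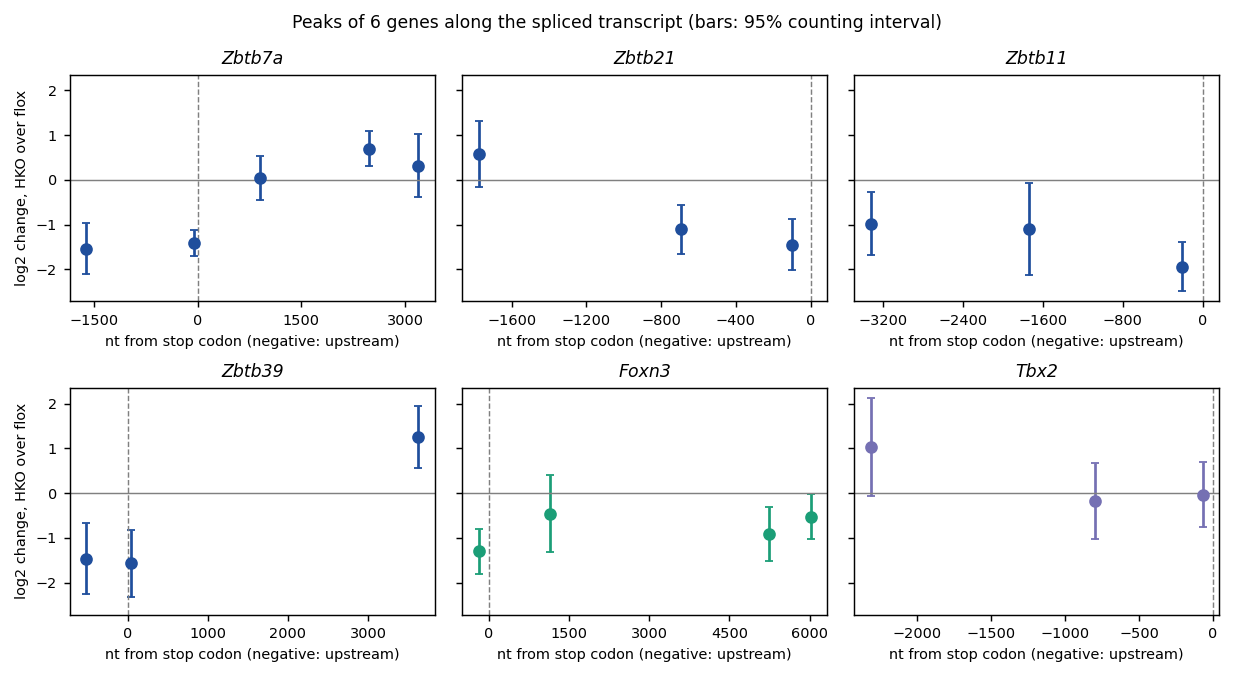
Log2 change of enrichment (HKO over flox) of each placed peak of 6 members by its distance from the stop codon along the spliced transcript, with 95% counting intervals as vertical bars and the dashed line at the stop codon. In Zbtb7a and Zbtb39 the peaks at or before the stop codon lie below -1 and those over 800 nt past it lie at or above 0.04, while all 4 peaks of Foxn3 lie below 0.

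The last comparison concerned the letters under the peaks. GGACT was searched on the strand of the gene in the transcript sequence of each placed peak, and was found in 39 of 94 member peaks (41.5%), against 38.3% of all placed peaks. The shorter GGAC, which every GGACT contains, was found in 79 (84.0%), against 75.9%. The searched sequence was longer in members, with a median of 325 nt against 264 nt. Where GGACT was present it lay a median of 14 nt from a summit in members, against 36 nt in all peaks, and within 20 nt in 21 of 39 (53.8%), against 33.4%. Over the peaks of the families' factors alone the median was 21 nt and the share 18 of 36 (50%). The nearest pair of site and summit was taken, so a peak with more of either can have a shorter distance. The bases around GGACT varied among members, with G after it in 14 of the 39 nearest sites, T in 12, C in 9 and A in 4.

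By the 2-fold limit, lower enrichment did not go with GGACT among the members as it did over all peaks. With GGACT 17 of 39 member peaks were lower (43.6%), and without it 27 of 55 (49.1%), with medians of -0.93 and -0.98. Over all placed peaks the shares were 39.3% with GGACT and 15.2% without. A change below 0 was more frequent with GGACT in members too, at 34 of 39 peaks (87.2%) against 39 of 55 without (70.9%). For all placed peaks these shares were 70.5% and 38.8%. Member medians with and without GGACT were -0.86 and 0.49 in the 3' UTR. They were -1.07 and -1.19 at the stop codon and -0.89 and -1.01 in the coding sequence. In the coding sequence 11 of 21 member peaks without GGACT were lower (52.4%), against 13.7% of all such peaks. All of these 11 but the Foxn2 peak lay in Zbtb genes, among them Zbtb22, Zbtb24 and Zbtb11 described above. The share of 52.4% is thus one of the Zbtb genes and not of the other families. Whether the shares with and without the letters differ between members and all peaks was not tested.

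Genes known to work with these factors were read from a list of 42 partners, of which 20 had a peak. Of these 7 (35%) had a lower peak, against 34.5% of all genes, and 4 (20%) a higher one, against 10%. Of their 48 peaks 9 (18.8%) were lower, against 24.3% of all peaks, and 4 (8.33%) higher, against 6.25%, with a median log2 change of -0.02. Zfpm1 (FOG1), the cofactor of GATA factors, had 3769 IP and 1072 input reads in flox and 1411 and 1107 in HKO at its deepest peak, a change of -1.12 (-1.27 to -0.97). Amotl2, an inhibitor of the TEAD coactivator YAP, had a change of -1.58 (-1.82 to -1.34) at its deepest peak. Ldb1, which bridges GATA complexes, had one of -0.94 (-1.19 to -0.68). The partners' median was near that of all peaks, with -0.94 for the members.

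Markers of other liver cells were also counted, since several members are factors of those cells. Kupffer cell and macrophage markers had a summed input of 266 RPM in flox and 450 RPM in HKO, with 6 of 7 measured. Stellate cell markers had 20.7 RPM in flox and 33.0 RPM in HKO, with 4 of 7 measured, and of 6 lymphocyte markers Ptprc alone was measured. Of the 18 macrophage, 10 stellate and 9 endothelial marker peaks 1, 0 and 0 were lower, and 2 of 12 hepatocyte marker peaks were, against 24.3% of all peaks. The part of these cells in the members' changes was not tested.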

How the data were processed

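Mouse liver m6A IP and input were read from the authors' peak table of 14395 rows (1 for every pair of a peak and an overlapped gene), reduced here to 12815 peaks. The submitters' processing notes list the GRCm38 build and, as tools without a stated role, MACS2 2.1.0, HOMER, FastQC and BWA 0.7.12-r1039. The study's methods give exomePeak as the peak caller instead, so the caller is uncertain, and whether reads were stranded is not given. Read counts per peak are deposited by the authors without normalization. The deposited RPM equals the count plus 1 over the library total, and the deposited fold enrichment is the ratio of the IP to the input RPM. The authors' table lists no peak with enrichment of 1 or less in either genotype, and marks in which genotype a peak was called. A deposited column of the authors' own log2 change between genotypes was not used.

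Enrichment and its log2 change (HKO over flox) were computed from the RPM values. With 1 library per group no test was possible. Peaks at least 2-fold different were counted, with 95% counting intervals from the reads with 1 added. A count of 0 allows 3 reads, or 0.163 to 0.200 RPM. Peaks were placed by the middle of their exonic part on GENCODE M21 transcripts of the same build (7834 of 7835 gene identifiers matched), whose sequences gave the motifs. Principal isoforms were preferred if they held 90% or more of the largest overlap. The members and lists were chosen with earlier results of these data known. Named were, per family, up to 5 genes with the most IP reads, then the 10 lowest and 6 highest changes among peaks with at least the median IP reads, genes with 3 or more peaks, and the 6 lowest and 6 highest input changes among genes with at least 50 input reads. Sox6, Sox7, Zbtb6, Zbtb38, Foxn2, Foxj3, Foxk1, Foxs1, Zbtb42, Zbtb9, Zbtb48, Zbtb1, Zbtb10 and Zbtb41 are outside this rule and were named after their values were seen. The alternatives were other folds, filters, centrings, windows, motif letters and memberships. Scripts were tested on simulated data. Python 3.11.15, numpy 2.4.6, pandas 2.3.3, scipy 1.17.1 and matplotlib 3.10.9 were used.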

Additional observations from a re-analysis of the deposited data

How the results depend on the processing

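The share of lower member peaks stayed above that of all peaks under each of 16 alternatives, and the members' median log2 change stayed below that of all peaks under each of 14. At a 1.5-fold limit 60.4% of member peaks were lower (35.8% of all) and 12.5% higher (20.7% of all). At 3-fold 17.7% were lower (10.1% of all) and 0% higher (1.06% of all). Centred on peaks near transcript starts, which shifts every value by -0.45 on the log2 scale, 60.4% were lower (36.6% of all), 0% higher (1.62% of all) and the median was -1.39 (-0.49 for all). The share of higher peaks, 2 of 96 at first, was 1.04% with intervals away from 0, 0% among peaks with no fewer than 456 IP reads, 1.33% with at least 20 input reads in both genotypes, 3.19% with 0 added to each count and 1.14% without peaks that overlap a second gene. Near the stop codon lay 18.1% of member peaks with a window of 100 nt (13.1% of all). Near the transcript start lay 7.45% with one of 400 nt (17.5% of all). GGAC in place of GGACT was found in 84.0% (75.9% of all). Alternatives chosen after seeing the data left out the 6 genes of other kinds, the peaks with an input of 0 or the Zbtb genes. Another, also chosen then, set inputs of 0 to 3 reads, with 46.9% lower (24.2% of all) and 3.1% higher (6.2% of all). Without the Zbtb genes 18 of 47 peaks were lower (38.3%, against 24.3% of all) and 1 higher, with a median of -0.59. The share of lower peaks was 47.7% and 46.8% without the other groups in turn (24.3% and 24.2% of all). A motif search in the genomic sequence of whole peaks was not run, since no genome sequence was used here. No paired analysis was possible because each group has 1 library. The main limits are the single pooled library per group, the unknown strandedness, which leaves reads of overlapping genes undivided, and the low input depth of many members, whose counting intervals are wide.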

Other observations

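Other 5-letter forms near the common core were counted in member peaks, a list chosen after the result for GGACT had been seen. GGACA was found in 49 of 94 member peaks (52.1%), against 43.0% of all placed peaks, and GGACC in 38 (40.4%), against 36.0%. AGACT was found in 36 (38.3%), against 36.9%. GAACT was found in 31 (33.0%), against 34.0%, and AAACT in 29 (30.9%), against 30.2%. AAACC was found in 34 (36.2%), against 27.7%. Of the 55 member peaks that lacked GGACT, 26 held GGACA (47.3%), against 37.1% of all peaks without it. The searched sequence of these members was longer, with a median of 325 nt against 223 nt.

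The 3 members with at least 2-fold lower input had 0 lower peaks among them. Each of the 6 with at least 2-fold higher input (Zbtb6, Zbtb14, Zbtb2, Zbtb18, Zbtb21 and Sox9) had at least 1 lower peak. Of the 3, Meis1 had 11 and 6 input reads, with an input interval that included 0 (-2.42 to 0.27). No share over all genes with such inputs is given beside these counts. A higher input lowers enrichment by its construction, so these counts are a description and not a relation between m6A and RNA level.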
